A study of Mus musculus with 8 samples.

Results

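The genes described here encode the potassium, sodium and pacemaker channels that shape the electrical activity of the heart. They were chosen by name, with earlier results of these data known. The 35 genes are those of voltage-gated potassium channels and their partners, inward rectifiers, and two-pore and calcium-activated potassium channels. Sodium channel subunits, HCN channels and T-type calcium channels complete the list. A gene entered with the mean over its probe sets annotated to exactly 1 symbol, and 33 of the 35 could be read this way, out of 22180 genes in all. Kcnk3, a two-pore channel gene, and Scn4a, the skeletal muscle sodium channel gene, were not analysed here. The hearts came from male wild-type C57BL6/J mice aged 8 to 10 weeks, with the strain given as C57BL6JRj in the sample labels. Digoxin hearts (5 arrays) were taken after an intraperitoneal injection of digoxin at 1 mg/kg, and vehicle hearts (3 arrays) after injection of the solvent of ethanol, propylene glycol, citric acid and sodium phosphate. Both injections were given at ZT5 and both groups of hearts were taken at ZT9, where ZT0 is lights-on. The design text counts 4 vehicle samples, of which 3 were analysed here. The labels give the heart as the source of the total RNA, with no chamber named, and 1 array per sample. They do not say whether each sample is a separate animal, so the tests cover only the spread among the samples, which may in part be technical. Sample numbers in the labels place all vehicle arrays before all digoxin arrays, and an effect of that order cannot be told apart from that of the treatment.

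The cardiac action potential starts with sodium influx and ends when potassium leaves the cell. Voltage-gated potassium channels carry the repolarizing currents, and their auxiliary subunits set how many channels reach the membrane and how fast they open and close. Inward rectifiers hold the resting potential near the potassium equilibrium, and members of that family also answer to acetylcholine or to falling ATP. HCN channels and T-type calcium channels carry depolarizing current in pacemaker cells. Digoxin blocks the Na/K-ATPase, the pump that maintains the sodium and potassium gradients these channels use.

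Each probe set was deposited as expression around a constant of its own. No log base is stated. The values were taken as log2 from the normalization method, and fold values rest on this. Such values compare 1 gene between arrays, they give no level, and a value of 0 does not mean absence. Values are given in the order of the replicate numbers, which are those of the sample titles. The array names in the labels number the same samples differently. The tissue cannot be checked by the presence of cardiomyocyte markers on such values. One vehicle array, replicate 3, had a wider spread over all probe sets (interquartile range 0.216) than the other arrays (0.0792 to 0.115). Atrial cardiomyocyte markers differed widely between hearts. The mean over 9 such markers was 0.32, -0.26, 0.86, 1.49 and -0.38 on the digoxin arrays, against 2.04, 1.58 and 0.25 on the vehicle arrays, so the groups overlapped, with the highest values on vehicle replicates 1 and 2. All 9 markers had lower means in digoxin hearts, and Nr2f2 passed the test (adjusted p = 0.0467 in limma) while the other 8 did not. That call was kept in 1 of 8 fits without single arrays, the one without vehicle replicate 3 (adjusted p = 0.0395), and the adjusted p reached 0.127 without digoxin replicate 5. Nr2f2 did not follow the marker mean on every array. It was 0.36 on vehicle replicate 3, where that mean was 0.25, and 0.09 on digoxin replicate 4, where that mean was 1.49. In the other 9 lists of cell type markers, from ventricular cells to adipocytes, 0 genes passed the limma test, beside 1.36% of all genes. The unadjusted p was below 0.05 for up to 2 genes in each list (0 to 25%), beside 12.3% of all genes. Digoxin replicate 4 stood apart in 2 of these lists. Its mean was 0.65 over 8 macrophage and leukocyte markers, against -0.14 to 0.15 on the other 7 arrays, and 0.41 over 6 adipocyte markers, against -0.13 to 0.12. The T cell gene Cd3e (2.85), the leukocyte gene Ptprc (1.63) and the adipocyte gene Cidec (1.35), picked after their values were seen, were high on that array. Without it the log2 change was 0.60 for Kcna5 and -0.48 for Kcnj2, the channel genes farthest from 0. In RNA of heart tissue, fewer cells of a type and less RNA per cell cannot be told apart.

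Digoxin was compared with vehicle in limma across all genes, with p values adjusted by Benjamini-Hochberg and a threshold of 0.05. Among the channel genes, Kcna5 rose and no gene fell. That is 1 of 33 for rises, beside 0.947% of all genes, and 0 of 33 for falls, beside 0.415%. The 1 call in either direction is 3.03% of the 33, beside 1.36% of all genes. Limma without adjustment gave a p below 0.05 for 5 genes with higher and 1 gene with a lower mean in digoxin hearts. Together these 6 genes are 18.2% of the 33, beside 12.3% of all genes. Every digoxin array lay above every vehicle array for 4 genes (Kcna5, Hcn2, Kcnk1 and Kcnd3, beside 4.4% of all genes) and below every vehicle array for 1 gene (Kcnj2, beside 3.76%). These 5 genes without overlap are 15.2% of the 33, beside 8.16% of all genes. The channel genes were chosen with earlier results of these arrays known, so these shares are descriptions. Means were higher in digoxin hearts for 18 genes and lower for 15. The median log2 change over the 33 genes was 0.02, against -0.01 over all genes, and 28 of the 33 (84.8%) changed by less than 0.2, against 89.2% of all genes. The 95% interval of a channel gene reached between 0.09 and 0.36 to either side of its log2 change, with a median of 0.18, while the median size of a change over the 33 genes was 0.11.

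**Figure D1:**
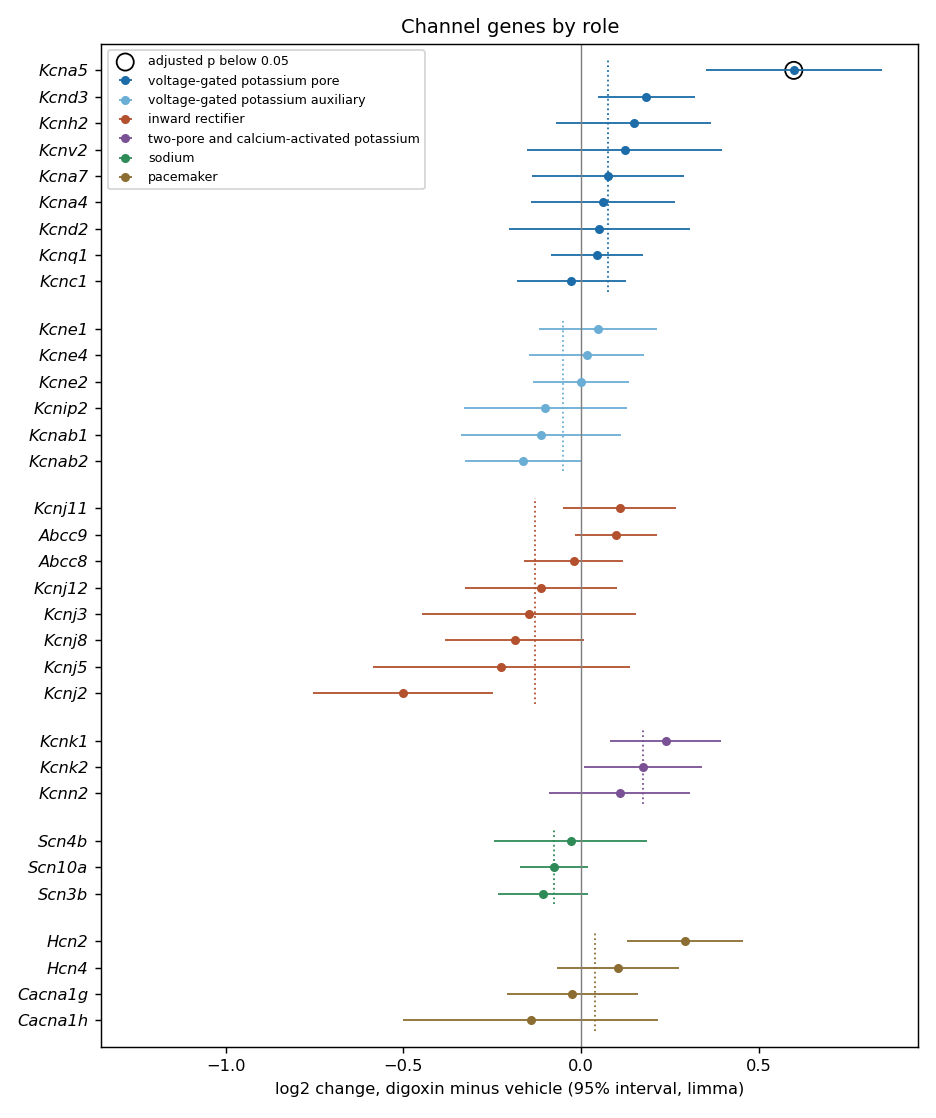
Log2 change of each of the 33 measured channel genes, digoxin minus vehicle, with its 95% interval from limma (horizontal axis), grouped by role; dotted lines are the medians of each group and the open circle marks an adjusted p below 0.05. Kcna5 (0.60) and Kcnj2 (-0.50) lie farthest from 0 on the 2 sides, and the other 31 lie between -0.22 and 0.29.

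Compared by role, the groups had medians close to 0. The median log2 change was 0.08 over the 9 pore-forming voltage-gated potassium genes, of which 8 had higher means in digoxin hearts. It was -0.05 over their 6 auxiliary subunits and -0.13 over the 8 inward rectifier genes, of which 6 had lower means. The 3 two-pore and calcium-activated potassium genes had a median of 0.17 and higher means in digoxin hearts throughout, and the 3 sodium channel genes had a median of -0.08 and lower means throughout. The 4 pacemaker genes had a median of 0.04, with 2 on each side. Single arrays moved several of these medians. Without vehicle replicate 1 the median was 0.15 for the pore genes and -0.03 for the inward rectifiers, and without vehicle replicate 3 it was 0.05 for the pore genes and 0.09 for the two-pore group. The median of the auxiliary subunits was -0.02 without digoxin replicate 5, and that of the pacemaker genes was 0.01 without digoxin replicate 1 and 0.09 without digoxin replicate 4. These medians describe the groups and were not tested.

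**Figure D2:**
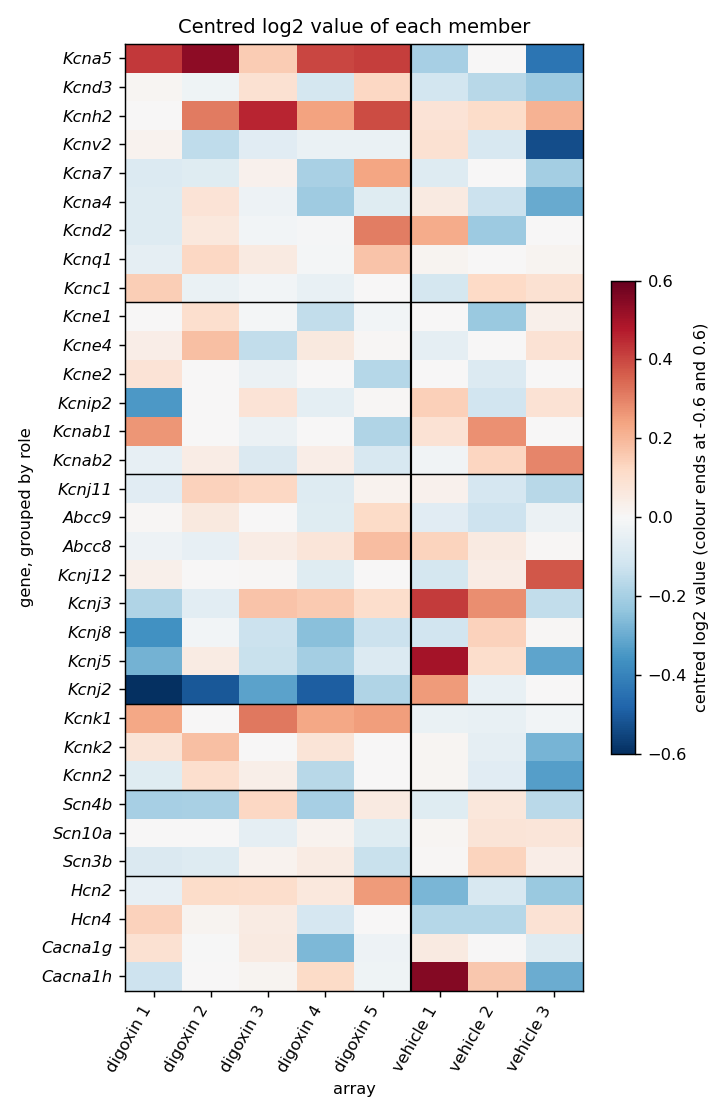
Centred log2 value of the 33 channel genes (rows, grouped by role) on each of the 5 digoxin and 3 vehicle arrays (columns); the colour scale ends at -0.6 and 0.6. Kcna5 is higher and Kcnj2 lower on all 5 digoxin arrays than on the vehicle arrays, and vehicle replicate 3 holds, for example, the lowest values of Kcna5, Kcnv2, Kcnn2, Kcna4, Kcnj5 and Cacna1h.

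The promoters of Kcna5, Kcnj2 and Hcn2 are shown because these 3 genes lay farthest from 0 among the voltage-gated potassium, inward rectifier and pacemaker genes. The sequences are those of RefSeq on GRCm38.p6, from 250 bases before to 50 bases after the annotated start, 5′ to 3′ on the strand of the gene (Kcna5 at chr6:126535506-126535805, minus strand; Kcnj2 at chr11:111065914-111066213, plus strand; Hcn2 at chr10:79716384-79716683, plus strand). Capitals mark matches on either strand to 6 motifs described after the sequences.
Kcna5: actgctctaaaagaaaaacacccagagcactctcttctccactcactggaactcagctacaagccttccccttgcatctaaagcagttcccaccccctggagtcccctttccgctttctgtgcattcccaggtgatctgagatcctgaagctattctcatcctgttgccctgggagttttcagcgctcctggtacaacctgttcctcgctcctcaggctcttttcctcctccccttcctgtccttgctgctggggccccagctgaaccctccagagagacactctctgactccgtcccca
Kcnj2: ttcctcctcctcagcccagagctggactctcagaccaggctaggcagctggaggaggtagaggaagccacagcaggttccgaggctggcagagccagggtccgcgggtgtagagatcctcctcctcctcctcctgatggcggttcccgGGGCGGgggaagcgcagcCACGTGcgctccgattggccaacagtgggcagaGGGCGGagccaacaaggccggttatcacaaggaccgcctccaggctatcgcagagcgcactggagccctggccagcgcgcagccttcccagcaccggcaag
Hcn2: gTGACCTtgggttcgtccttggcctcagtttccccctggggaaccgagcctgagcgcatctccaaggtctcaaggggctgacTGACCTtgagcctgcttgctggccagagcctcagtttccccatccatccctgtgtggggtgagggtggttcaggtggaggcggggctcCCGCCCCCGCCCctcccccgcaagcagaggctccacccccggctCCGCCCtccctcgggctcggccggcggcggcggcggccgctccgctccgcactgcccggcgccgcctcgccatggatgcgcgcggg
The motifs were the E-box CACGTG bound by clock activators, the nuclear receptor half-site AGGTCA, the glucocorticoid receptor half-site AGAACA, the GC box GGGCGG, the GATA motif AGATAA and the TATA box TATAAA. Neighbouring matches can overlap or touch. The Kcna5 window held 0 matches. In Kcnj2 an E-box began at position -84, counted back from the start, and GC boxes at -102 and -51. In Hcn2 half-sites of the AGGTCA type began at -249 and -168, and GC boxes at -80, -74 and -36.

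Promoters were found for 24 of the 33 measured genes, with 32 annotated starts. An E-box stood in 12.5% of these 32 windows, against 7.15% of all 32851 promoters, in the genes Kcnj2, Kcne4 and Kcnab1. The GC box stood in 46.9%, against 35.7%, and AGAACA in 15.6%, against 19%. AGGTCA and TATAAA each stood in 3.12% of the windows, against 16.3% and 13.6% of all promoters. AGATAA stood in 0 of the 32, against 11.2%. The full glucocorticoid response element, an inverted repeat of AGAACA with a 3-base spacer, stood in 0 of the 32 windows and in 3 of all promoters. These counts describe letters in short windows, and several windows belong to the same gene.

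Kcna5 encodes Kv1.5, the pore of a rapidly activating, slowly inactivating repolarizing current. Its centred log2 values were 0.43, 0.54, 0.15, 0.40 and 0.41 on the digoxin arrays, against -0.20, 0 and -0.44 on the vehicle arrays. All digoxin arrays lay above all vehicle arrays, with digoxin replicate 3 closest to them. The means were 0.39 ± 0.14 (SD, n = 5) for the digoxin arrays and -0.21 ± 0.22 (SD, n = 3) for the vehicle arrays, which puts digoxin hearts 1.51-fold above vehicle hearts (log2 change 0.60, SE 0.11, 95% interval 0.35 to 0.85, adjusted p = 0.0397 in limma). It was number 100 among all genes by the size of the rise. The log2 change stayed between 0.49 and 0.71 when single arrays were left out, but the call was kept only without digoxin replicate 3 or vehicle replicate 2 (adjusted p = 0.0349 and 0.0352) and lost when any of digoxin replicates 1, 2, 4 and 5 and vehicle replicates 1 and 3 was left out (0.0638 to 0.114). With the atrial marker mean added to the fit its log2 change was 0.62 with an adjusted p of 0.0688 in limma.

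Kcna4 and Kcna7, the other 2 Kv1 genes, did not pass. Kcna4 encodes Kv1.4, which carries a slowly recovering transient outward current, and had a log2 change of 0.06, the mean of probe sets that differed in direction (-0.08 and 0.20). Its centred log2 values were -0.08, 0.08, -0.03, -0.22 and -0.07 on the digoxin arrays, against 0.06, -0.13 and -0.30 on the vehicle arrays, and without vehicle replicate 3 the change was -0.03. Kcna7, the gene of Kv1.7, had a log2 change of 0.08. The change of Kcna5 exceeded that of Kcna4 by 0.54 and that of Kcna7 by 0.52, and in both cases the difference between the genes was higher on all digoxin arrays than on all vehicle arrays. For Kcna4 the exact two-sided permutation p was 0.0179, the smallest that 56 assignments of the arrays can give, and 0.143 after adjustment over the 16 pairs of related genes compared. For Kcna7 it was 0.0357, and 0.19 after that adjustment. These differences did not pass the adjustment, which 1 pair at the smallest p cannot pass unless several others reach that value too.

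Kv4 channels, in mouse ventricle the pore of the fast transient outward current, are encoded by Kcnd2 and Kcnd3. For Kcnd3 the centred log2 values were 0.01, -0.03, 0.09, -0.11 and 0.13 on the digoxin arrays, against -0.11, -0.17 and -0.22 on the vehicle arrays. The groups did not overlap, but their nearest arrays were almost equal. Its log2 change was 0.18 (SE 0.06, 95% interval 0.05 to 0.32) and missed the threshold (adjusted p = 0.25 in limma). Kcnd2 had a log2 change of 0.05 (95% interval -0.20 to 0.31), and the difference between the 2 genes was 0.13 (exact permutation p = 0.286). Kcnh2, which encodes the ERG channel of the rapid delayed rectifier, had centred log2 values of 0, 0.31, 0.46, 0.24 and 0.39 on the digoxin arrays, against 0.08, 0.11 and 0.21 on the vehicle arrays. Digoxin replicate 1 was the lowest of all 8 arrays, the other 4 digoxin arrays were above every vehicle array, and the log2 change of 0.15 (SE 0.10, 95% interval -0.07 to 0.37) missed the threshold (adjusted p = 0.579 in limma).

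The remaining pore genes were close to 0. Kcnq1, the pore of the slow delayed rectifier, had a log2 change of 0.05. Kcnc1, the gene of Kv3.1, had a log2 change of -0.03. Kcnv2, which encodes a silent subunit that joins Kv2 channels, had a log2 change of 0.12 with all arrays and of -0.05 without vehicle replicate 3, which held its lowest value (-0.53).

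**Figure D3:**
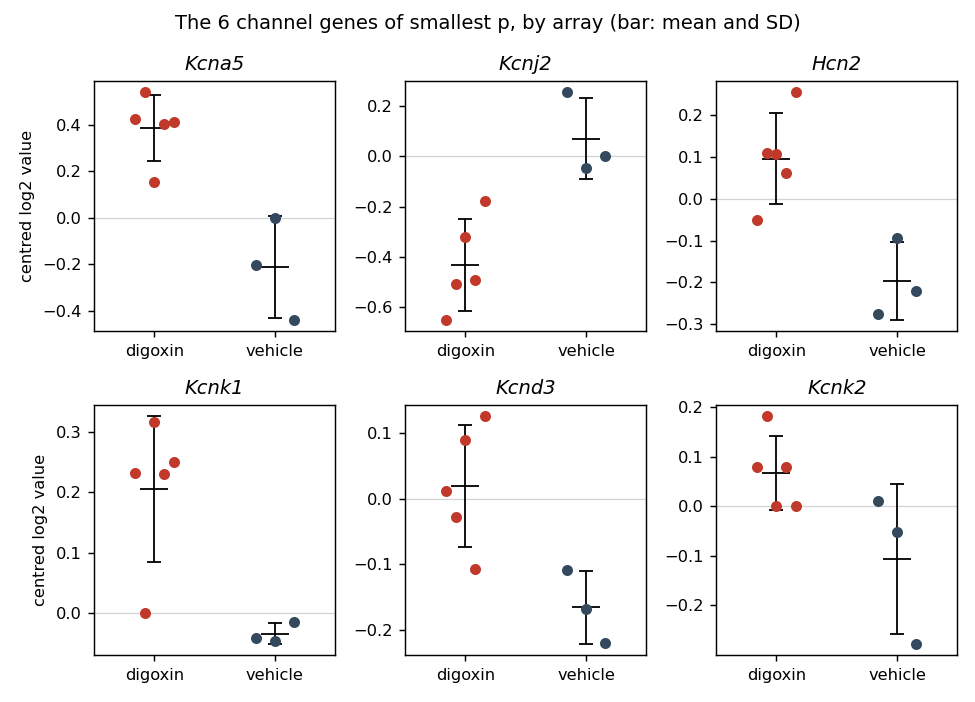
Centred log2 value (vertical axis, scaled for each gene) on the 5 digoxin arrays (left) and 3 vehicle arrays (right) of the 6 channel genes with the smallest p; bars show the mean and SD of each group. The groups do not overlap for Kcna5, Kcnj2, Hcn2, Kcnk1 and Kcnd3, and they overlap for Kcnk2.

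None of the 6 auxiliary subunit genes passed, and for each of them the digoxin and vehicle arrays overlapped. Kcnab2, a Kv beta subunit gene, had centred log2 values of -0.05, 0.04, -0.08, 0.04 and -0.09 on the digoxin arrays, against -0.02, 0.13 and 0.29 on the vehicle arrays. The log2 change was -0.16 (SE 0.07, 95% interval -0.33 to 0.0024, adjusted p = 0.414 in limma), and it was -0.08 without vehicle replicate 3, the highest array. Its relative Kcnab1 had a log2 change of -0.11 (SE 0.10, 95% interval -0.34 to 0.11, adjusted p = 0.69 in limma), with 0.27, 0, -0.03, 0 and -0.18 on the digoxin arrays, against 0.09, 0.27 and 0.0044 on the vehicle arrays. Digoxin replicate 1 and vehicle replicate 2 shared the highest value to within 0.01. Kcnip2 encodes KChIP2, which Kv4 channels need to reach the membrane of ventricular cells in mouse. Its centred log2 values were -0.35, 0, 0.08, -0.06 and 0.01 on the digoxin arrays, against 0.14, -0.12 and 0.09 on the vehicle arrays, and digoxin replicate 1 was the lowest. The log2 change of Kcnip2 was -0.10 (SE 0.10, 95% interval -0.33 to 0.13, adjusted p = 0.732 in limma), and without digoxin replicate 1 it was -0.03. The single-pass subunit genes Kcne1, partner of Kcnq1, Kcne2 and Kcne4 had log2 changes of 0.05, 0.00079 and 0.02, each with an interval within 0.22 of 0.

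Kcnj2 encodes Kir2.1, the main pore of the current that holds the resting potential of ventricular cells. Its centred log2 values were -0.65, -0.51, -0.32, -0.49 and -0.18 on the digoxin arrays, against 0.25, -0.05 and 0 on the vehicle arrays. Every digoxin array lay below every vehicle array, and digoxin replicate 5 and vehicle replicate 2 were the closest. The means were -0.43 ± 0.18 (SD, n = 5) for the digoxin arrays and 0.07 ± 0.16 (SD, n = 3) for the vehicle arrays, which puts vehicle hearts 1.41-fold above digoxin hearts. The log2 change of -0.50 (SE 0.11, 95% interval -0.75 to -0.25) missed the threshold (adjusted p = 0.0836 in limma), although only 62 of all genes had a lower log2 change. It stayed between -0.56 and -0.41 without single arrays, with adjusted p values of 0.0615 to 0.202, and it passed with quantile normalization (adjusted p = 0.0468 in limma). With the atrial marker mean added to the fit its log2 change was -0.49 with an adjusted p of 0.126 in limma. Kcnj12, the gene of Kir2.2, had a log2 change of -0.11 with all arrays and of 0.02 without vehicle replicate 3. The change of Kcnj12 exceeded that of Kcnj2 by 0.39, and the difference overlapped between the groups (exact permutation p = 0.0893, adjusted 0.343 over the 16 pairs).

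The ATP-sensitive channels pair a Kir6 pore with a sulfonylurea receptor. Kcnj8, the gene of the vascular pore Kir6.1, had centred log2 values of -0.36, -0.02, -0.13, -0.25 and -0.13 on the digoxin arrays, against -0.12, 0.14 and 0.01 on the vehicle arrays. The groups overlapped, digoxin replicate 1 was the lowest array, and the log2 change was -0.19 (SE 0.09, 95% interval -0.38 to 0.01, adjusted p = 0.432 in limma). Kcnj11, the gene of the cardiomyocyte pore Kir6.2, had a log2 change of 0.11. On every digoxin array Kcnj11 minus Kcnj8 was higher than on any vehicle array, by a narrow margin (0.15 at the lowest in digoxin, 0.14 at the highest in vehicle). The difference of the 2 changes was 0.30 (exact permutation p = 0.0179, adjusted 0.143 over the 16 pairs). Abcc9, the gene of the receptor SUR2, had centred log2 values of 0.01, 0.06, 0, -0.07 and 0.12 on the digoxin arrays, against -0.07, -0.12 and -0.04 on the vehicle arrays. The groups overlapped, and the log2 change was 0.10 (SE 0.05, 95% interval -0.02 to 0.21, adjusted p = 0.486 in limma). Abcc8, which encodes SUR1, had a log2 change of -0.02. Kcnj8 and Abcc9 are also known from pericytes and smooth muscle. The mean over 9 markers of those cells was 0.31, 0.12, 0.05, 0.23 and 0.06 on the digoxin arrays, against 0.16, 0.03 and -0.01 on the vehicle arrays. The groups overlapped there too, but 6 markers had higher and 3 lower means in digoxin hearts. Notch3 (log2 change -0.22) and Cspg4 (-0.16) were lower on all digoxin than on all vehicle arrays (22.2% of the list, beside 8.16% of all genes). Neither passed (adjusted p = 0.0865 and 0.238 in limma). Cnn1 (0.45) and Myh11 (0.36) had the largest rises, and their groups overlapped. The part of these cells in the values of Kcnj8 and Abcc9 was not tested.

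Kcnj3 and Kcnj5 encode GIRK1 and GIRK4, which together form the acetylcholine-activated channel of atrial and nodal cells. The log2 change was -0.15 for Kcnj3 (95% interval -0.45 to 0.15), the mean of probe sets at -0.26 and -0.03, and -0.22 for Kcnj5 (95% interval -0.59 to 0.14), and neither passed. On the vehicle arrays Kcnj5 ran from 0.50 in replicate 1 to -0.32 in replicate 3, a wider range than over the digoxin arrays (-0.28 to 0.05). Kcnj3 ran from 0.42 to -0.15 on the same vehicle arrays. The order of the 3 vehicle arrays was the same for both genes as for the mean of the atrial markers. Neither probe set of Kcnj3 had that order alone (0.56, 0.70 and -0.21 for 1, and 0.28, -0.14 and -0.08 for the other). On the digoxin arrays the order differed from that of the marker mean for both genes. Digoxin replicate 4 had the highest marker mean there (1.49) with Kcnj5 at -0.20. The highest Kcnj5 (0.05) was on digoxin replicate 2, where the marker mean was -0.26. Without vehicle replicate 1 the log2 change was -0.03 for Kcnj3 and -0.02 for Kcnj5, and without vehicle replicate 3 it was -0.31 and -0.43 for these genes. With the atrial markers in the fit, the log2 change was 0.02 for Kcnj3 and -0.12 for Kcnj5.

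**Figure D4:**
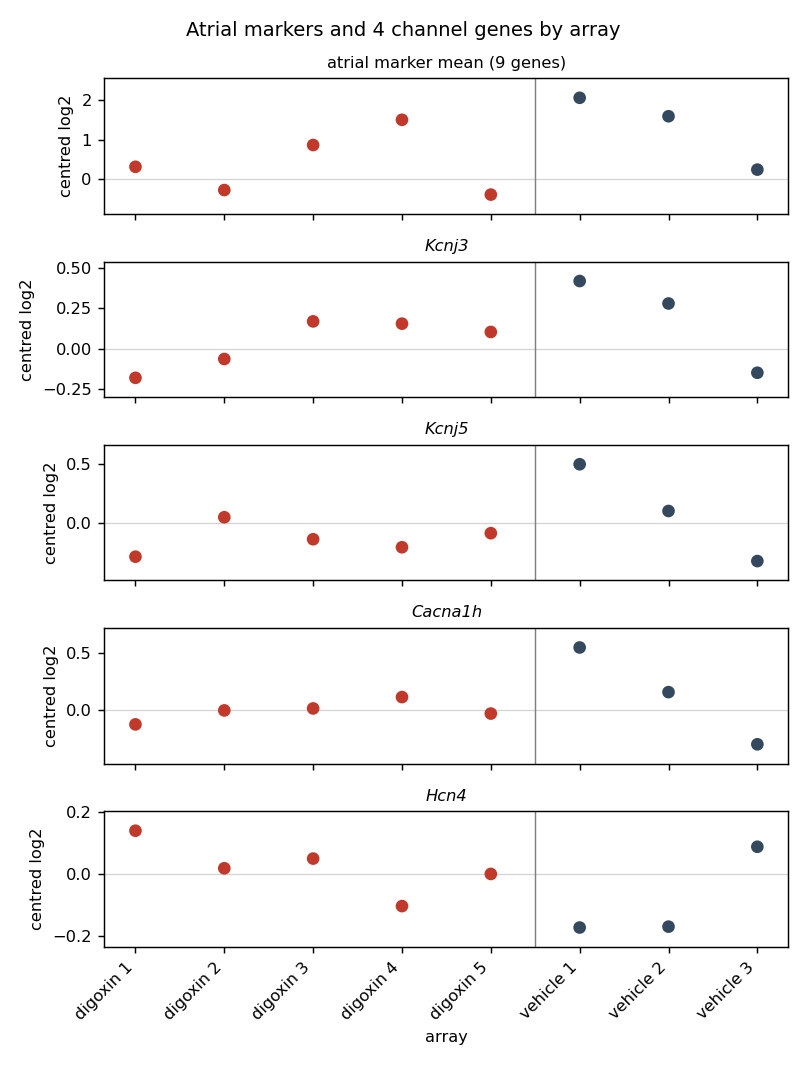
Mean centred log2 value of 9 atrial markers (top) and the values of Kcnj3, Kcnj5, Cacna1h and Hcn4 on the 5 digoxin arrays (left of the line) and 3 vehicle arrays. The marker mean spans -0.38 to 2.04, and vehicle replicate 1 is the highest array for the markers, Kcnj3, Kcnj5 and Cacna1h.

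The 3 genes of two-pore and calcium-activated potassium channels that were measured had higher means in digoxin hearts, and none passed. Kcnk1 encodes TWIK1, a background potassium channel. Its centred log2 values were 0.23, 0, 0.32, 0.23 and 0.25 on the digoxin arrays, against -0.04, -0.05 and -0.01 on the vehicle arrays. The vehicle arrays lay close together and below all digoxin arrays, and digoxin replicate 2 was nearer to the vehicle arrays than to the other digoxin arrays. The log2 change was 0.24 (SE 0.07, 95% interval 0.08 to 0.39, adjusted p = 0.181 in limma). Without digoxin replicate 2, the digoxin array closest to the vehicle arrays, it was 0.29 and passed (adjusted p = 0.035). In the 7 other fits without single arrays Kcnk1 did not pass, with an adjusted p of up to 0.346 (without digoxin replicate 5). Kcnk2, the gene of the stretch-sensitive channel TREK1, had centred log2 values of 0.08, 0.18, 0, 0.08 and 0 on the digoxin arrays, against 0.01, -0.05 and -0.28 on the vehicle arrays. The groups overlapped, and the log2 change of 0.17 (SE 0.07, 95% interval 0.01 to 0.34, adjusted p = 0.378 in limma) was 0.09 without vehicle replicate 3. Kcnn2, the gene of the calcium-activated channel SK2, had centred log2 values of -0.07, 0.10, 0.04, -0.17 and 0 on the digoxin arrays, against 0.01, -0.07 and -0.33 on the vehicle arrays. Its log2 change of 0.11 (SE 0.09, 95% interval -0.09 to 0.31, adjusted p = 0.652 in limma) was 0.01 without that array, which was the lowest of the 8.

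Among the sodium channel genes, the 3 that were measured had lower means in digoxin hearts, and none passed. Scn3b and Scn4b encode beta subunits, which modify gating of the cardiac sodium channel, and Scn10a encodes Nav1.8, a pore best known from sensory neurons. For Scn3b the centred log2 values were -0.09, -0.08, 0.02, 0.05 and -0.13 on the digoxin arrays, against 0.01, 0.14 and 0.04 on the vehicle arrays, and the groups overlapped (log2 change -0.11, SE 0.06, 95% interval -0.23 to 0.02, adjusted p = 0.488 in limma). For Scn10a the centred log2 values were 0, 0, -0.05, 0.02 and -0.07 on the digoxin arrays, against 0.01, 0.08 and 0.07 on the vehicle arrays, with all arrays between -0.07 and 0.08 (log2 change -0.08, SE 0.04, 95% interval -0.17 to 0.02, adjusted p = 0.513 in limma). Scn4b had centred log2 values of -0.20, -0.19, 0.12, -0.20 and 0.05 on the digoxin arrays, against -0.07, 0.07 and -0.16 on the vehicle arrays. Digoxin replicates 1, 2 and 4 stood apart from 3 and 5, and the log2 change was -0.03 (SE 0.09, 95% interval -0.24 to 0.19, adjusted p = 0.933 in limma). The intervals of these 3 genes exclude log2 changes beyond -0.24 and 0.19.

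Of the pacemaker genes, Hcn2 had the smallest p. HCN2 and HCN4 form the channels of the hyperpolarization-activated current, HCN4 in the sinoatrial node above all. The centred log2 values of Hcn2 were -0.05, 0.11, 0.11, 0.06 and 0.26 on the digoxin arrays, against -0.28, -0.09 and -0.22 on the vehicle arrays. All digoxin arrays lay above all vehicle arrays, with digoxin replicate 1 and vehicle replicate 2 closest. The means were 0.10 ± 0.11 (SD, n = 5) for the digoxin arrays and -0.20 ± 0.09 (SD, n = 3) for the vehicle arrays, a log2 change of 0.29 (SE 0.07, 95% interval 0.13 to 0.46) that missed the threshold (adjusted p = 0.114 in limma). It stayed between 0.25 and 0.35 without single arrays, and no such fit called it (adjusted p of 0.087 to 0.245).

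Hcn4 had centred log2 values of 0.14, 0.02, 0.05, -0.10 and 0 on the digoxin arrays, against -0.17, -0.17 and 0.09 on the vehicle arrays. Vehicle replicates 1 and 2 were the lowest arrays and vehicle replicate 3 was above 4 of the 5 digoxin arrays. The log2 change of Hcn4 was 0.11 (SE 0.08, 95% interval -0.07 to 0.28, adjusted p = 0.62 in limma), and with the atrial markers in the fit it was 0.02. The changes of Hcn2 and Hcn4 differed by 0.19 (exact permutation p = 0.214), so a difference between the 2 genes was not shown. Cacna1h, the gene of the T-type channel Cav3.2, had centred log2 values of -0.12, 0, 0.02, 0.12 and -0.03 on the digoxin arrays, against 0.55, 0.16 and -0.30 on the vehicle arrays. The digoxin arrays stayed within -0.12 and 0.12 while the vehicle arrays spread on both sides of them, and the log2 change was -0.14 (SE 0.16, 95% interval -0.50 to 0.22, adjusted p = 0.761 in limma). It was -0.36 without vehicle replicate 3 and 0.06 with the atrial covariate. Cacna1g, which encodes Cav3.1, had a log2 change of -0.02. The mean over 8 markers of sinoatrial and conduction cells was -0.0041, -0.02, 0.0029, -0.06 and -0.13 on the digoxin arrays, against -0.05, 0.04 and 0.06 on the vehicle arrays, so the groups overlapped, and its part in the pacemaker values was not tested.

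Beyond the 33 genes, 73 other potassium, sodium, HCN and T-type channel genes on the arrays were read in the same fit. Of these, 1 rose, Kcnip3, and 0 fell, so 1.37% were called, beside 1.36% of all genes. Limma without adjustment gave a p below 0.05 for 2 with higher and 3 with lower means, 6.85% of the 73, beside 12.3% of all genes. Kcnip3 encodes KChIP3, also named calsenilin or DREAM, a calcium sensor of the KChIP family that can bind Kv4 channels and DNA. Its centred log2 values were 0.36, 0.32, 0.71, 0.48 and 0.53 on the digoxin arrays, against -0.04, -0.04 and 0.03 on the vehicle arrays. All digoxin arrays lay at least 0.29 above the highest vehicle array, and the log2 change was 0.50 (SE 0.08, 95% interval 0.31 to 0.69, adjusted p = 0.0265 in limma). Without single arrays the change lay between 0.44 and 0.54, and the call was lost when any of digoxin replicates 4 and 5 and vehicle replicates 1 and 2 was left out (adjusted p of 0.0607 to 0.0991). With the atrial covariate the adjusted p was 0.0552. Its relative Kcnip2 had a log2 change of -0.10.

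By class, 1 of 35 other voltage-gated potassium genes rose (2.86%, beside 0.947% of all genes). None of 8 other inward rectifiers, 21 other two-pore and calcium-activated channels, 7 other sodium channel genes and 2 other pacemaker genes passed. Their medians were -0.05, -0.09, -0.04, 0.0013 and 0.07 in that order, as log2 changes. All 8 other inward rectifiers had lower means in digoxin hearts, but their median was -0.0042 without vehicle replicate 3. Besides Kcnip3, the genes of smallest p in each class, with their log2 changes, were Kcnf1 (-0.31), a silent Kv subunit, Kcnj15 (-0.15) and Kcnj1 (-0.11), Kcnk5 (-0.16) and Kcnk9 (-0.09), Scn3a (0.16) and Scn8a (-0.07), and Hcn3 (0.10) and Cacna1i (0.04). Their adjusted p values lay between 0.264 and 0.764 in limma.

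Among 16 partners and scaffolds of these channels, which include the atrial marker Fgf12, 1 rose (6.25%, beside 0.947% of all genes) and none fell (beside 0.415%). This was Sgk1, a kinase that in frog oocytes raises the surface level of several channels and transporters, with centred log2 values of 0.70, 0.51, 0.60, 0.64 and 0.55 on the digoxin arrays, against -0.23, -0.29 and -0.53 on the vehicle arrays. The digoxin and vehicle arrays were far apart (log2 change 0.95, SE 0.07, adjusted p = 0.000565 in limma). Nedd4l, a ubiquitin ligase that acts on sodium channels and is a target of SGK1, had a log2 change of 0.19 (adjusted p = 0.576 in limma) and of 0.01 without vehicle replicate 3. Fgf11, a relative of the sodium channel modulator FGF13, had a log2 change of -0.23 (adjusted p = 0.0914 in limma), and it passed without vehicle replicate 1 (0.041). Of 24 transcription factors known from cardiac channel and conduction genes, 1 rose (4.17%, beside 0.947% of all genes) and none fell (beside 0.415%). Klf15, reported to drive the daily rhythm of Kcnip2 in mouse heart, had centred log2 values of 0.60, 0.77, 0.85, 0.96 and 0.94 on the digoxin arrays, against -0.19, -0.01 and -0.35 on the vehicle arrays. The groups were far apart (log2 change 1.01, SE 0.10, adjusted p = 0.00193 in limma). The values of Kcnip2 overlapped between the groups, and a link between these genes was not tested. Gata4, a cardiac factor, had a log2 change of -0.28 (adjusted p = 0.139 in limma), with all digoxin arrays below all vehicle arrays. Both lists were chosen with earlier results of these arrays known, so their counts are descriptions.

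**Figure D5:**
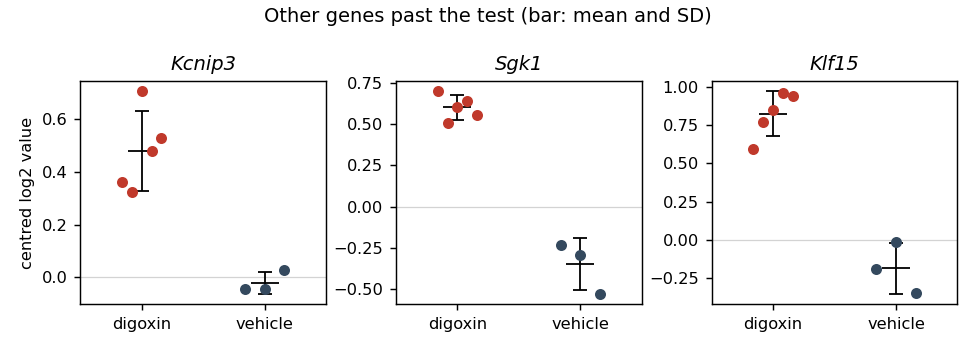
Centred log2 value (vertical axis, scaled for each gene) of Kcnip3, Sgk1 and Klf15 on the 5 digoxin arrays (left) and 3 vehicle arrays (right), with mean and SD of each group. For all 3 genes every digoxin array lies above every vehicle array.

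Related genes were compared in 16 pairs within 12 subfamilies. For 3 pairs the difference between the genes did not overlap between digoxin and vehicle arrays: Kcna5 and Kcna4, Kcna5 and Kcna7, and Kcnj11 and Kcnj8. None passed after adjustment over the 16 pairs, where the lowest value was 0.143. The smallest possible exact permutation p was 0.0179, so 1 pair could not pass unless several others reached that value too. The adjusted values therefore do not decide whether the genes of a single pair differ. The other 13 pairs overlapped, with exact permutation p values of 0.0893 to 0.982. The pairs were listed with the values known.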

How the data were processed

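RNA from mouse hearts was measured on Affymetrix Mouse Gene 2.0 ST arrays. The authors deposited log2 values, made per the series' design text with Robust Multi-array Average in the GIANT tool suite on Galaxy. The submitters' processing notes name limma. For the authors' tools, versions were not given in the sources used here. Most probe sets hold an exact 0 (21739 of them), so the authors centred each probe set on a constant that is not stated. The base was taken as that of the normalization method. No filter on dim genes could be set on such values, and precision is limited by the number of arrays.

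Of 34351 probe sets, 23521 carried 1 symbol, 1814 several and 9016 none, and those with 1 symbol were averaged to 22180 genes. Their identifiers matched RefSeq for 23328 probe sets, with 0 symbols changed. The 5 digoxin and 3 vehicle arrays were compared in limma 3.58.1 (R 4.3.3, lmFit and eBayes, two-sided, 6 residual and 2.75 prior degrees of freedom) with Benjamini-Hochberg adjustment over all genes. Pairs of related genes were compared by exact permutation of the arrays (scipy 1.17.1). On simulated data for this comparison, 200 of 22180 genes were changed. Of these, 85.1% were recovered at a log2 change of 0.5 and 100% at 1 and at 2. Unchanged genes made up 6.86% of the calls, and 0 calls were made without a change. Whether these shares hold with the wider spread of vehicle replicate 3, or for genes that vary together, was not tested.

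Every measured channel gene is named. Values by array and full statistics are given for those past the test, the 3 of smallest p in each role, and any with probe sets of opposite sign, and other lists give genes past the test and the 2 of smallest p, with Klf15, Sgk1 and Nedd4l always named. Kcnj3, Kcnj5 and others are described beyond this rule, a choice made with their values seen. The genes, lists, pairs and tests were chosen with earlier results of these data known. Alternatives were other scalings, array weights, a robust variance model, single probe sets, an atrial covariate, left-out arrays, a replicate block and other thresholds.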

Additional observations from a re-analysis of the deposited data

Results flagged for a closer look

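In 3 of 48 named genes, 1 digoxin array lay apart from the other digoxin arrays by more than 0.71 of the whole range of the group, and chance gives about 1 in 20. The vehicle group of 3 was not tested in this way. For Kcnc1, digoxin replicate 1 had a centred log2 value of 0.15, and the nearest other digoxin array had 0.0035. For Kcnk1, digoxin replicate 2 had 0, and the nearest had 0.23. For Hcn3, digoxin replicate 1 had 0.13, and the nearest had 0.04. Kcnk1 passed the test of digoxin against vehicle without its array (log2 change 0.29, adjusted p = 0.035 in limma). It did not pass with all arrays or in the 7 other fits without single arrays.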

How the results depend on the processing

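Over all genes, 210 rose and 92 fell. The number that rose was 319 with quantile normalization, 95 at an adjusted p below 0.01 and 327 below 0.10. The number that fell was 320 with array weights, 282 without digoxin replicate 4 and vehicle replicate 3 together, 23 below 0.01 and 166 below 0.10. Leaving out single arrays gave 123 (without digoxin replicate 5) to 185 that rose and 29 (without vehicle replicate 2) to 189 (without vehicle replicate 3) that fell.

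Of the channel genes, 1 rose. That count was 0 below 0.01, with the atrial covariate and with digoxin replicate 4 and vehicle replicate 3 both left out, and between 0 and 1 without single arrays, where 1 can be Kcna5 or, without digoxin replicate 2, Kcnk1. The count that fell was 1, Kcnj2, instead of 0 with quantile normalization and below 0.10.

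By the replicate numbers, taken from the sample titles, deviations of same-numbered arrays correlated at -0.2, -0.02 and 0.02. Between arrays of different numbers the correlations ran from -0.15 to 0.19. These few values cannot decide whether the samples were paired. By the other numbers, in the array names, the correlations were 0.02, 0.04 and -0.15, and no block was fitted on these. With the replicate block 11 genes rose, 1 fell and 0 channel genes rose, and the pacemaker median was 0.10. Kcna5 had a log2 change of 0.59 with an adjusted p of 0.114 in limma, and Kcnj2 had -0.56 with 0.377. Kcnip3 (log2 change 0.48, adjusted p = 0.271 in limma), Sgk1 (0.96, 0.0917) and Klf15 (0.92, 0.132) also lost their calls in this fit.

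Medians of log2 changes moved for the auxiliary subunits to 0.0030 with array weights, for the inward rectifiers to -0.071 with single probe sets and -0.058 with the atrial covariate (-0.15 to -0.026 without single arrays), and for the pacemaker genes to 0.11 without digoxin replicate 4 and vehicle replicate 3 together (0.011 to 0.086 without single arrays).

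Over the 18 other fits, 20 channel genes kept their direction and 13, none with a log2 change beyond 0.15 in size with all arrays, did not. Reversed log2 changes were, with single probe sets, Kcna4 at -0.075, with quantile normalization, Kcnc1 at 0.0090, with the replicate block, Kcnd2 at -0.012 and Cacna1g at 0.054, and with the atrial covariate, Kcne1 at -0.019, Kcne4 at -0.039, Kcnj3 at 0.017, Abcc8 at 0.00087 and Cacna1h at 0.056. Without digoxin replicate 4 and vehicle replicate 3 together they were Kcnc1 at 0.015, Kcnv2 at -0.056, Kcnj12 at 0.040, Cacna1g at 0.00025 and Nedd4l at -0.0038. Without single arrays the ranges crossed 0 for Kcna4 (-0.026 to 0.15), Kcnc1 (-0.098 to 0.015), Kcnd2 (-0.058 to 0.16), Kcnv2 (-0.053 to 0.26), Kcne1 (-0.032 to 0.096), Kcne2 (-0.026 to 0.038), Kcne4 (-0.022 to 0.060), Kcnj12 (-0.22 to 0.023), Abcc8 (-0.055 to 0.014), Scn4b (-0.081 to 0.034), Cacna1g (-0.059 to 0.036) and Cacna1h (-0.36 to 0.065). The cause was not tested. Genes with 1 probe set alone gave no value for Kcna4 and Kcnj3.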
